A study of Orbicella faveolata with 48 samples.

Results

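The 88 coral transcripts described here were lower in heated than in control fragments from inshore reefs at 5 days, while the offshore group median stayed level. They were chosen by the measured values, the differences from the 5-day libraries and the mean level from all 48: of 87440 assembled coral features, 26353 had a mean of at least 2 CPM (counts scaled to the library's coral total), and 88 of these met both limits. The first limit was a difference of -0.8 or lower between the heated and control inshore medians of log2(CPM + 1), and the second was an offshore difference of less than 0.2 in either direction. No cap was needed, since fewer than 200 features qualified.

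RNA was measured in the mountainous star coral (Orbicella faveolata), which builds reefs and is under threat, to ask how inshore and offshore corals of the Florida Keys differ in their tolerance of heat. Control fragments stood at 30 °C at both times, and heated fragments stood at 33 °C at 5 days and at 32 °C at 31 days after a slow warming, so time and temperature cannot be told apart between the days. Each day had 9 control and 9 heated inshore libraries, with 4 genotype labels (In1, In2, In3 and In4), and 3 control and 3 heated offshore libraries, 1 of each label O1, O2 and O5. At 5 days In1 was colony tags A3, A4 and A6, In2 was BLY5 and BLY6, In3 was D3, D5 and D6, and In4 was B4, while the offshore tags were C1, C2 and C5. At 31 days In1 was A2, A4 and A5, In2 was B2 and B3, In3 was D4, D5 and D6 in controls and D3, D4 and D5 under heat, and In4 was BLY5, while the offshore tags were C2, C4 and C5. Labels did not follow tags between the days: BLY5 was In2 at 5 days and In4 at 31 days, and C2 was O2 and then O1. They were used as given. No source used here says that fragments with 1 label came from separate colonies, so p-values may measure the spread between fragments of 1 colony. In whole tissue, fewer cells of a type and less RNA per cell cannot be told apart.

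Reef corals house photosynthetic algae in the cells of their gut lining and lose them when the water stays too warm, a loss called bleaching. Warming is known to raise chaperones, which refold damaged proteins, and antioxidant enzymes in corals, and to lower many genes of growth and calcification. Corals from nearshore reefs often live through wider swings of temperature than those from reefs further out, and comparisons of both are used to ask how heat tolerance is set. The deposited values carry no gene names, so none of the 88 transcripts could be placed in such a pathway and no marker of coral tissue could be looked up. Identifiers are printed for 4 members only, and the others are described by rank or by the libraries in which they were present.

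Libraries held between 4726663 and 6686881 coral counts, so that 2 CPM stood for 9.45 to 13.4 counts, and 3 counts, the limit that a count of 0 allows, were 0.449 to 0.635 CPM. These limits cover counting error only. A few libraries stood apart in what follows: the 31-day offshore control C4 and heated inshore B2 and B3 shared a surge of some members, and the heated A5 library of 31 days was high in several others.

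The values that chose the members are a description and no test. Inshore differences at 5 days ran from -4.62 to -0.81 with a median of -1.10 on the log2(CPM + 1) scale, and offshore differences from -0.20 to 0.18 with a median of 0. The members just inside the inshore limit had differences of -0.81 and -0.82, and the features just outside it -0.80 and -0.80. Those just inside the offshore limit had -0.20 and -0.19, and those just outside it -0.20 and 0.20. The lowest mean levels were 2.01 and 2.08 CPM, and the features just under the limit had 1.99 and 1.97 CPM.

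In all, 847 features (3.21% of those at 2 CPM) met the inshore limit, of which the members were 10.4%. Offshore differences of these 847 had a median of -0.96, with quartiles of -1.36 and -0.47. An offshore difference of -0.8 or lower, the value of the inshore limit, was found in 501 of them. Another 212 lay between that and -0.2, and 46 were at 0.2 or higher. A level offshore median was common among all features at 2 CPM, of which 38.8% met the offshore limit of 0.2.

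**Figure D1:**
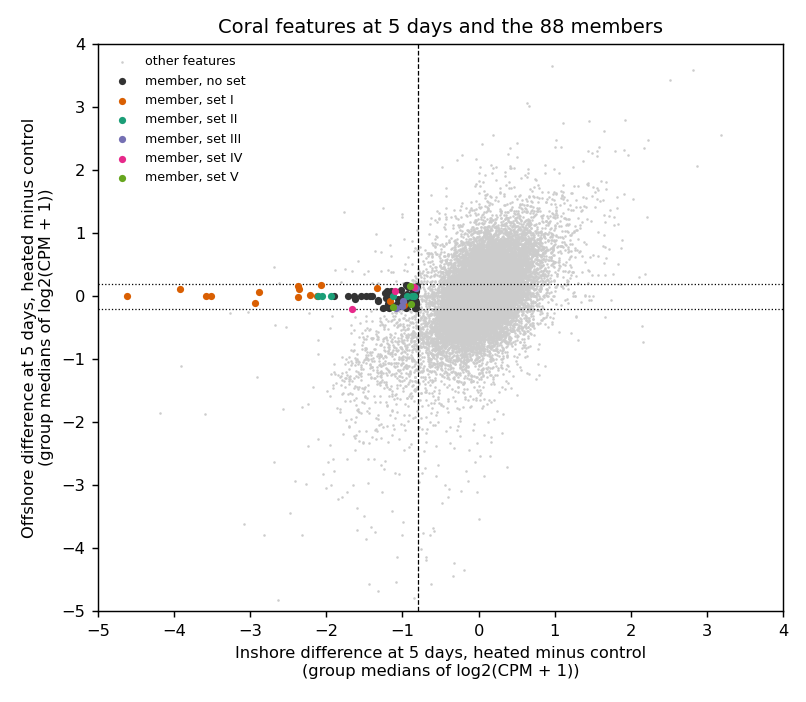
Heated minus control difference of group medians of log2(CPM + 1) at 5 days, inshore on the x axis and offshore on the y axis, for features at a mean of 2 CPM or more (grey) and the 88 members (coloured by set). The dashed line marks the inshore limit of -0.8 and the dotted lines the offshore limit of 0.2, and the members form a thin band out to -4.62.

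The members were scarcer, by median level, than the features at the limit as a whole. Mean levels ran from 2.01 to 503 CPM with a median of 5.84 CPM, against a median of 11 CPM for all features at the limit. There were 39 members under 5 CPM and 6 over 50 CPM. Just 24 of the 88 (27.3%) reached 1 CPM in every one of the 48 libraries, against 66.4% of all features, and 41 were under 1 CPM in 12 or more libraries.

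Many members were scarce or absent offshore in both arms. The median of the 3 offshore controls at 5 days was under 1 CPM in 34 of 88 members (38.6%), against 4.93% of all features. The rule favoured this excess, since a transcript nearly absent offshore in both arms has hardly any offshore difference. At 31 days the offshore control median was under 1 CPM in 30 of 88 members (34.1%), against 4.73% of all features. Those libraries entered the rule through the mean level only, but the transcripts were those favoured at 5 days. Set I, described below, held 12 of the 34 and was scarce in both habitats at 31 days. Its median summed level was then 15.0 CPM in inshore controls and 12.3 CPM in offshore controls. The share of members under 1 CPM in inshore controls was not counted. In 16 members all 6 offshore libraries of 5 days were under 1 CPM, and in 4 members all 12 offshore libraries of both days. The rule favoured such members in the same way. Inshore controls had the higher median in 84 of 88 members at 5 days (95.5%, against 50.5% of all features), an excess that the rule favoured, since these control medians entered it and a low inshore difference favours high inshore controls. At 31 days the inshore control median was the higher in 64 of 88 (72.7%, against 60.1%), among transcripts so favoured at 5 days. The median over members of the group medians, in log2(CPM + 1), was 3.15 in inshore controls, 1.58 in heated inshore fragments, 1.75 in offshore controls and 1.73 in heated offshore fragments at 5 days. The order of these 4 values rests on the libraries of the rule and is no result. At 31 days the same medians were 2.32, 2.03, 1.61 and 1.82.

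Single offshore colonies were not level. The change within a tag, heated minus control, reached 0.8 in either direction in at least 1 of the 3 offshore tags for 47 members, and 1 or more for 41 members. All 3 offshore tags stayed within 0.2 in 6 members only, and all 6 had an offshore control median under 1 CPM. Over the 88 members the median change was 0.00 in C1, -0.30 in C2 and 0 in C5. In C2, 58 members were lower under heat and 17 higher, in C1 28 were lower and 44 higher, and in C5 40 were lower and 28 higher. The label of a group that is flat offshore therefore describes the median of 3 tags, and the offshore tags differed among themselves.

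The edgeR model of 5 days adds the error of these changes. Of the 88 members, 27 were called lower inshore (background 5.3% of all features tested), none offshore (background 1.37%) and none in the difference between habitats (background 0.0029%). At an unadjusted p under 0.05 there were 2 members offshore (background 16.5%) and 11 in the difference (background 5.29%). Nothing is read from these counts, because the rule used the contrast. The edgeR offshore estimate was below 0 in 61 of the 88 members, and in 16301 of the 34540 features tested. The 95% interval of the offshore estimate reached -0.8 or lower in 74 members and held the member's own inshore estimate in 67. Its median width was 2.95 log2 units. The median SE was 0.70 offshore, with 3 libraries in each arm, and 0.40 inshore, with 9.

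Inshore, the members were lower across tags to unequal extents. Over the 9 tags of 5 days, 17 members were lower under heat in all 9, 8 members in 8, 19 in 7, 24 in 6, 13 in 5 and 7 in 4. The median change of the members was -1.24 in D3, -1.12 in D6, -0.90 in BLY5, -0.84 in D5, -0.70 in BLY6, -0.61 in A6, -0.47 in B4, -0.44 in A3 and -0.41 in A4. Label In3 (the D tags) had the lowest median, -1.08 with 81 of 88 members lower, followed by In2 at -0.77 with 74, In1 at -0.65 with 60 and In4 at -0.47 with 58. In all 4 labels 34 members were lower. Values of heated and control inshore libraries did not overlap in 4 members, and 0.994% of all features had every heated value below every control value.

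**Figure D2:**
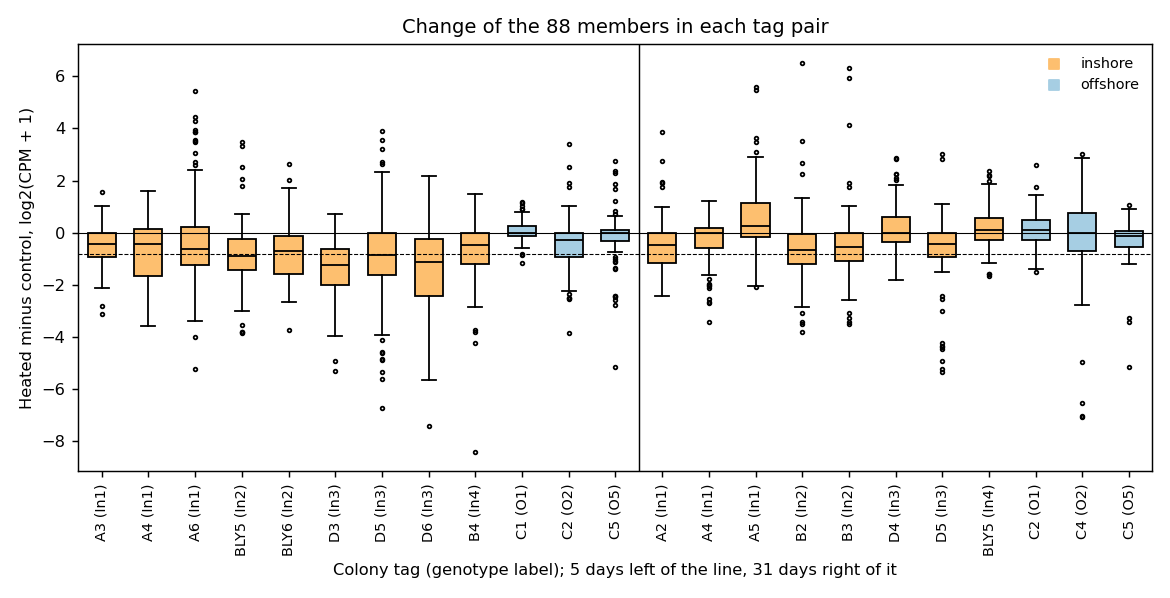
Change of the 88 members in each tag pair, heated minus control in log2(CPM + 1), with 5 days left of the line and 31 days right of it. Boxes span the quartiles with the median as a line, whiskers reach 1.5 times the box length, and single points lie beyond. At 5 days the 9 inshore medians run from -1.24 to -0.41 and the 3 offshore medians from -0.30 to 0.00, while at 31 days the inshore medians run from -0.67 (B2) to 0.27 (A5).

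The libraries of 31 days entered the rule through the mean level only and allow a test of the heat response, at 32 °C in place of 33 °C. Of the 88 members, 77 could be tested, and the 11 that failed the filter on low counts all belonged to 1 set that was nearly absent at 31 days, described below. Inshore, no member passed an adjusted p of 0.05 (edgeR quasi-likelihood F test, Benjamini-Hochberg over 35219 features), where 2.37% of all features did. At an unadjusted p under 0.05, 9 members were lower and 1 was higher, or 10 of 77, where 19.4% of all features passed. DESeq2 called 2 members, both lower (background 6.05%). The median estimate of the tested members was -0.16 with a median SE of 0.41, and of all features 0.03, and 46 of 77 members were below 0 (59.7%, against 46.9% of all features). That median was -0.42 without the heated A5 library, -0.06 without the heated D5 library and -0.03 without label In3. The members' 95% intervals reached -0.8 or lower in 54 of 77 members, so a fall at the limit of the rule was within the error for most. How many intervals held the member's own fall of 5 days was not counted.

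Offshore at 31 days no member passed either (background 0.0312%), with 6 members at an unadjusted p under 0.05 (background 9.89%) and none by DESeq2 (background 0.835%). Offshore estimates were below 0 in 53 of 77 members (68.8%, against 49.4% of all features). Their median was -0.40 with a median SE of 0.73. That median rested on single offshore labels: it was -0.03 without the 3 libraries of the surge, and it moved from -0.57 to -0.01 over the libraries left out in turn. Each offshore label had 1 library in each arm, so with a genotype term leaving out 1 of them set aside the pair. The offshore median was -0.57 without label O1 and -0.01 without label O2. The difference of both heat responses, inshore minus offshore, was called in none of the 77 members (background 0.0), with 7 at an unadjusted p under 0.05 (background 13.7%) and none by DESeq2 (background 0.0341%). Its median over the tested members was 0.09, and it lay between -0.17 and 0.38 over the alternatives run, on either side of 0.

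By group medians, the measure of the rule, the inshore difference at 31 days was below 0 in 68 of 88 members (77.3%, against 54.5% of all features), with a median of -0.31 against -0.03. It was -0.8 or lower in 14 members (15.9%, against 3.33%) and 0.8 or higher in 3 (3.41%, against 1.28%). Offshore the median was -0.00, with 44 of 88 below 0 (50%, against 40.1%). Both limits of the rule were met anew at 31 days by 6 members (6.82%, against 0.808%).

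**Figure D3:**
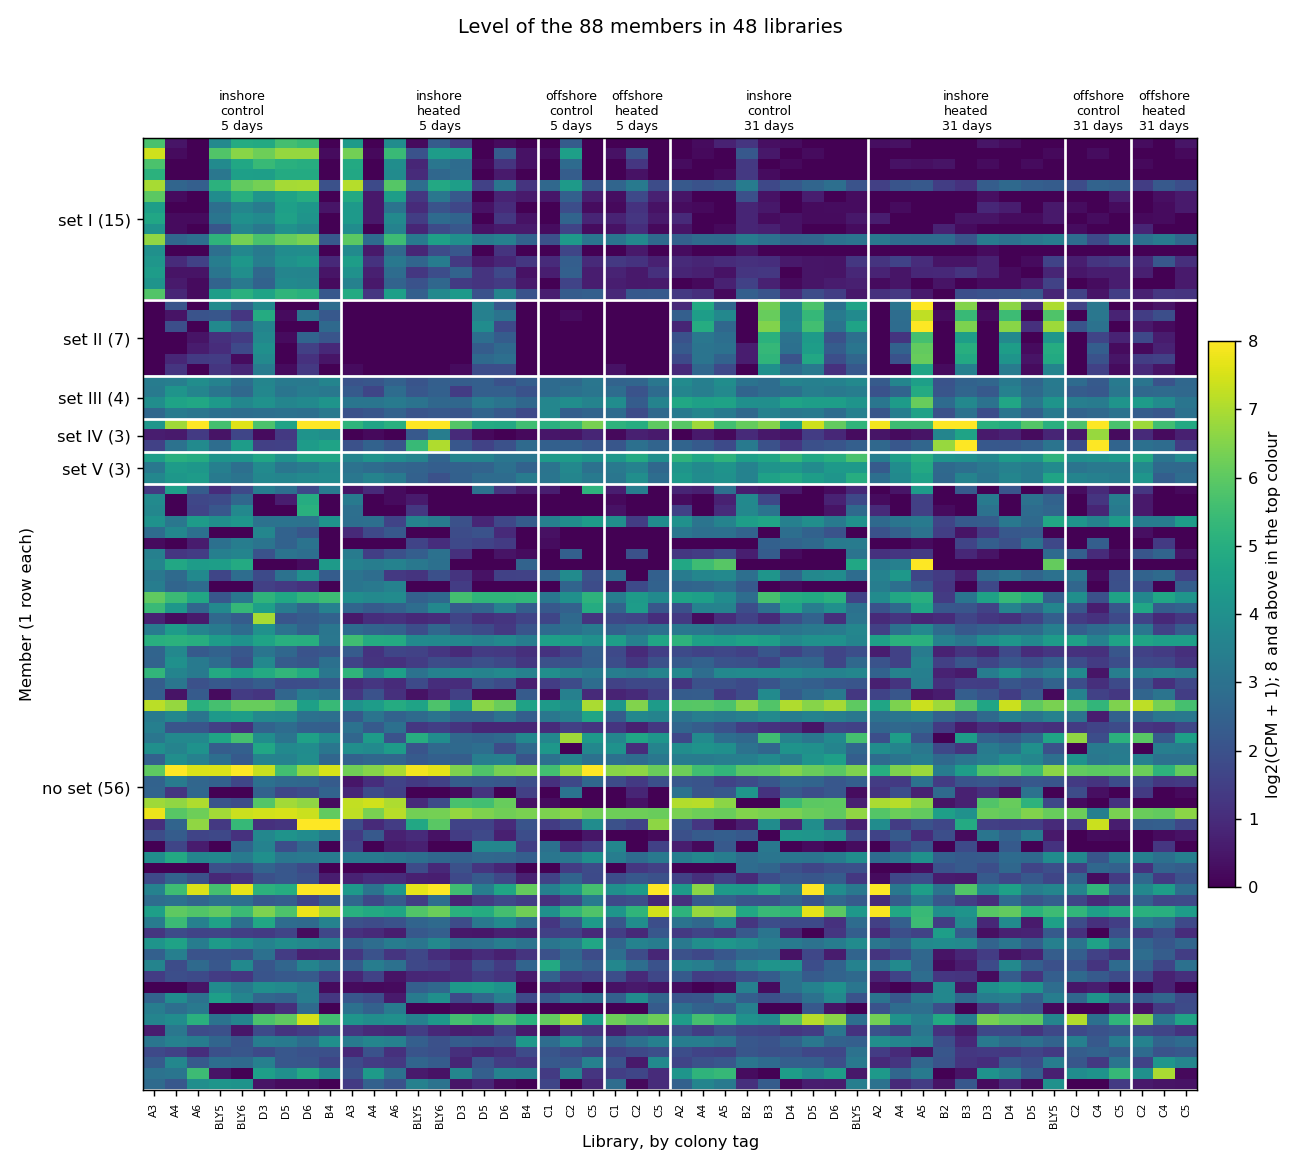
Level of each member in log2(CPM + 1) (colour) in each of the 48 libraries, with 1 row per member, columns ordered by group and named by colony tag, and rows ordered by set. Set I is bright in some 5-day libraries and nearly dark at 31 days, set II is bright in parts of the inshore 31-day libraries, and several rows without a set are dark in whole tags, offshore ones above all.

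The members fell into sets by how they varied over the 48 libraries. Average linkage at a correlation of 0.8 gave 5 sets of at least 3 members, with 15, 7, 4, 3 and 3 members, and left 56 in none. The sets were formed after the values were seen, on the libraries that chose the members, and serve as description.

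Set I, with 15 members, held the largest differences of the rule, from -4.62 to -0.98 with a median of -2.37, and included the 3 members with the lowest inshore differences. Its summed level at 5 days ran from 12.2 to 781 CPM in the 9 inshore controls, with a median of 396 CPM, and from 13.2 to 519 CPM in the heated ones, with a median of 45.3 CPM. The groups overlapped over nearly their whole range.

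Within set I, 6 inshore tags were lower under heat, A6 was higher and A4 and B4 were level. The summed level was 781 CPM in the A3 control and 519 CPM in the A3 heated library, but 13.6 CPM in the A6 control and 284 CPM in the A6 heated one. In D5 it was 579 CPM in the control and 17.3 CPM under heat, and in D6 it was 577 CPM and 45.3 CPM. D3 went from 396 to 115 CPM, BLY5 from 241 to 39.7 CPM and BLY6 from 473 to 139 CPM. Tags A4 and B4 were at 12.2 to 14.2 CPM in both arms. Labels thus did not sort these libraries, since In1 held both A3 and A4.

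Offshore the summed level of set I was 105 CPM in the C2 control and 38.2 CPM in the C2 heated library, and between 11.5 and 19.1 CPM in the other 4. At 31 days it ran from 9.41 to 40.7 CPM over all 24 libraries. A level of 100 CPM or more occurred in 11 libraries, all of 5 days, of which 10 were inshore. In these 11 the members kept similar proportions: the shares of the members correlated at 0.78 or more between any pair of libraries, and the leading member made up 18.5% to 26.3% of the sum. No member of the set was lower in more than 7 of the 9 tags or in fewer than 5. Among all features at the limit, 29 correlated with the set's mean at 0.9 or more, the 15 members included.

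The member with the lowest inshore difference shows the same pattern. Its level at 5 days was 0, 28.1 and 50.6 CPM (lowest, median and highest) in inshore controls and 0, 0.182 and 19.6 CPM in heated ones. The offshore controls were at 0, 0 and 4.05 CPM, and all 3 heated offshore libraries at 0. At 31 days no library exceeded 1.36 CPM. Over those 24 libraries, the 5 features most like it correlated at 0.71 to 0.80, of which 1 was a member, and over all 48 libraries the 5 most like it reached 0.97 to 0.98, of which 3 were members.

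Set II, with 7 members and differences of -2.11 to -0.85 at 5 days, was nearly absent offshore at 5 days but not at 31 days. Its summed level at 5 days was 0 to 102 CPM in inshore controls, with a median of 15.9 CPM. Under heat 7 of 9 inshore libraries were at or below 0.186 CPM, and D5 and D6 stood at 53.3 and 32.0 CPM. The 6 offshore libraries were between 0 and 0.300 CPM, under the limit that a count of 0 allows.

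At 31 days set II was more abundant and did not follow heat. Inshore controls ran from 1.15 to 361 CPM with a median of 59.8 CPM, and heated inshore libraries from 0 to 941 CPM with a median of 28.9 CPM. Among the heated, A5 was at 941 CPM, BLY5 at 383 CPM, B3 at 306 CPM and D4 at 297 CPM, while A2, B2 and D3 were between 0 and 0.351 CPM and D5 was at 2.64 CPM. Offshore controls held 2.18, 5.20 and 34.4 CPM, and heated offshore libraries 0, 6.83 and 7.60 CPM, so that the control C4 stood above some inshore libraries of either arm. The inshore heat estimates of its 7 members ran from 0.23 to 1.58, all above 0 with a median SE of 1.06, although the differences of group medians were below 0 in all 7. None reached an unadjusted p under 0.05, and the lowest edgeR adjusted p was 0.503.

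**Figure D4:**
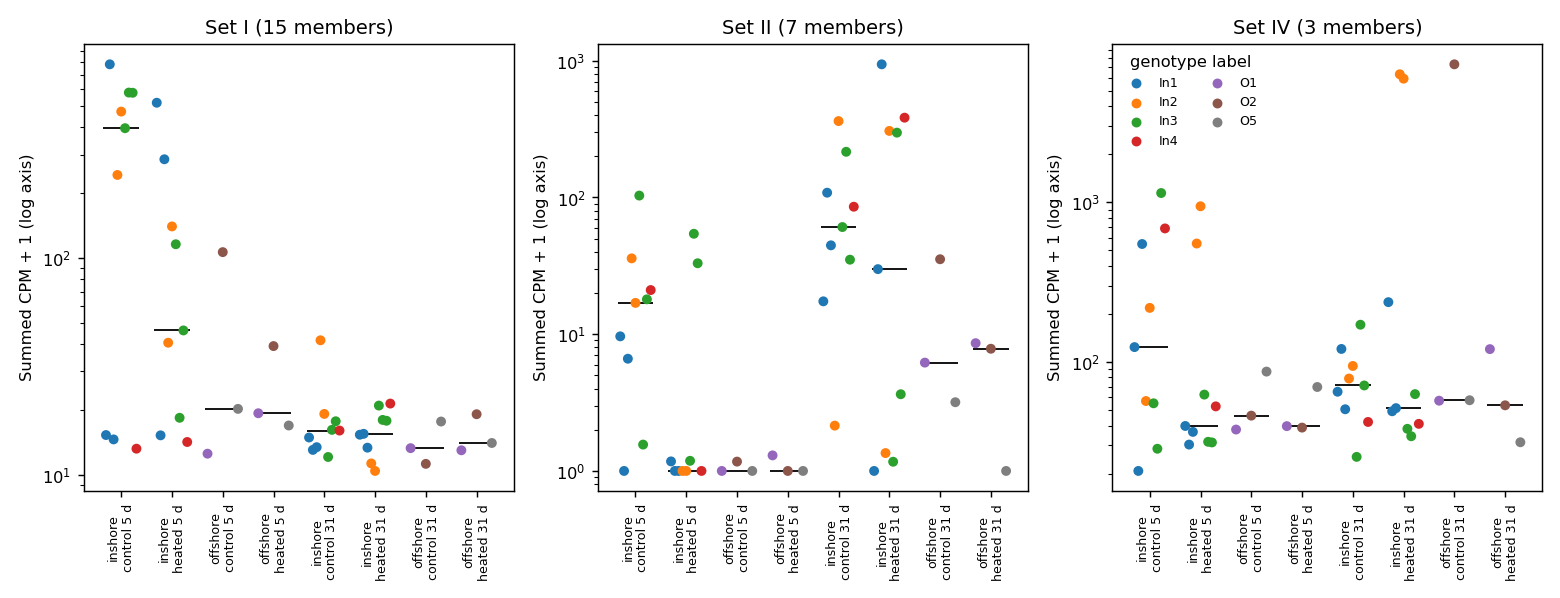
Summed level of the members of sets I, II and IV in each library (CPM + 1, log axis), by group, coloured by genotype label, with the group median as a line. Set I reaches 100 CPM only at 5 days, set II spans from 0 to 941 CPM inshore at 31 days, and set IV holds 3 libraries between 5951 and 7319 CPM.

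Set IV, with 3 members, included the most abundant member and showed the surge. That member stood at 6285 CPM in the C4 control, 6220 CPM in heated B2 and 5609 CPM in heated B3 at 31 days, and at 22.7 to 230 CPM in the other 21 libraries of that day. At 5 days it was at 17.3, 115 and 1107 CPM in inshore controls and 24.5, 35.8 and 804 CPM in heated ones. The highest were D6 and B4 (647 CPM) among controls, but BLY6 and BLY5 (506 CPM) among heated libraries, so different tags were high in the arms. Offshore it held 31.9, 40.3 and 81.8 CPM in controls and 30.5, 35.1 and 63.2 CPM in heated libraries.

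The second most abundant member was in no set and was as uneven. It stood at 10.6, 49.1 and 1311 CPM in inshore controls and at 7.39, 25.2 and 394 CPM in heated inshore libraries at 5 days. Offshore C5 went from 49.2 to 260 CPM, a rise within 1 tag that the group median does not show. The third most abundant member was more even, with 47.1, 181 and 297 CPM in inshore controls and 55.1, 87.1 and 233 CPM in heated inshore libraries. Its offshore controls held 46.8, 107 and 385 CPM and its heated offshore libraries 71.1, 95.3 and 98.5 CPM, so C5 was far lower under heat and C1 higher.

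The steadiest members were the 17 that were lower in all 9 inshore tags at 5 days, which include all 4 of set III and all 3 of set V. Their differences ran from -1.62 to -0.82 with a median of -0.999, and their mean levels from 2.50 to 20.5 CPM. All but 1 of the 17 had an offshore control median of at least 1 CPM. Choosing them by the tags of 5 days fixes their direction there and says nothing of its stability.

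In the 31-day libraries, whose heat response did not choose them, the inshore difference of group medians was below 0 in 17 of these 17, from -1.21 to -0.11 with a median of -0.58. Among the other 71 members it was below 0 in 51, with a median of -0.25. The edgeR estimates inshore were below 0 in 16 of 17, where 46.9% of all features were, with a median of -0.33 and a median SE of 0.29. An unadjusted p under 0.05 was reached by 4 of 17 (background 19.4%), a share near that of all features, and the lowest adjusted p was 0.0716. All 17 were lower under heat in tags A2, B2 and D5, 15 in BLY5, 14 each in B3 and D4, 13 in A4, and 4 in A5, where the median change was 0.71. Offshore the edgeR estimates of the 17 were below 0 in 14, where 49.4% of all features were. Their median was -0.40 with a median SE of 0.54, and the lowest edgeR adjusted p was 0.357. These 17 share libraries and are not independent of one another, and a difference between habitats was not called in any of them.

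Set III showed this most evenly at 5 days. Its summed level was 30.3, 43.8 and 59.7 CPM in inshore controls and 14.5, 17.6 and 24.1 CPM in heated inshore libraries, without overlap. Offshore controls held 31.0, 31.2 and 35.5 CPM and heated offshore libraries 14.9, 30.5 and 30.7 CPM, so C2 was lower under heat while C1 and C5 were near their controls. At 31 days inshore controls ran from 32.6 to 59.9 CPM and heated ones from 15.4 to 143 CPM, with A5 highest. The heated offshore libraries then held 25.5, 25.9 and 37.2 CPM and their controls 21.9, 24.6 and 40.5 CPM.

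Set V was also lower inshore, but its offshore tags differed from those of set III. Its summed level at 5 days was 30.5, 46.8 and 70.5 CPM in inshore controls and 12.1, 21.4 and 33.2 CPM in heated ones. It was lower under heat within all 9 tags, while the ranges of both arms overlapped. Offshore C2 went up from 43.6 to 53.1 CPM, where set III was lower, while C1 stood at 33.9 CPM under heat, near its control, and C5 went from 31.7 to 26.1 CPM. At 31 days the inshore medians were 67.0 CPM in controls and 35.7 CPM in heated libraries, with ranges of 43.0 to 101 CPM and 19.9 to 82.2 CPM. Offshore C2 then went up from 33.3 to 57.1 CPM, and C4 went down from 34.3 to 17.5 CPM and C5 from 36.4 to 25.1 CPM. The edgeR inshore estimates of its 3 members were between -0.65 and -0.53, and the lowest adjusted p was 0.143.

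The pair with the smallest p-values among members lower inshore at 31 days are given with their identifiers. OFAVBQ_DN204853_c0_g1_i1 held 7.03, 14.5 and 20.2 CPM in inshore controls and 0.80, 4.03 and 11 CPM in heated inshore libraries at 5 days, and was lower in all 9 tags. Its offshore controls held 10.2, 14.3 and 19.4 CPM and its heated offshore libraries 1.71, 13.8 and 14.4 CPM, so that only C2 was low. At 31 days inshore controls held 7.37, 14.4 and 25.1 CPM and heated ones 2.11, 5.64 and 26.6 CPM, the highest being BLY5. The OFAVBQ_DN204853_c0_g1_i1 log2 change was -0.97 (SE 0.28, edgeR adjusted p = 0.0716). It passed the threshold with DESeq2 (adjusted p = 0.0154), and edgeR without the BLY5 control, the heated BLY5 or label In4 gave an adjusted p of 0.0376, 0.0380 and 0.0379. The other 36 of 40 alternatives did not pass, and over all 40 the log2 change lay between -1.18 and -0.57 and the adjusted p between 0.0154 and 0.659. Offshore its log2 change was -0.59 (SE 0.46, adjusted p = 0.699).

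OFAVBQ_DN224211_c1_g1_i2 differed among colony tags as well as between arms. At 5 days it held 4.10, 13.0 and 25.6 CPM in inshore controls and 2.65, 5.68 and 19.9 CPM in heated ones, and the A tags were at 13.3 to 19.9 CPM under heat, little different from their controls, while the D tags went from 13.0 to 25.6 CPM in controls to 2.65 to 6.34 CPM under heat. Offshore it was 0, 12.1 and 17.9 CPM in controls and 1.03, 11 and 16 CPM under heat, with C2 lowest in both, and C2 was at 0 in both arms at 31 days as well, under another label. At 31 days inshore controls held 5.21, 14.0 and 16.4 CPM and heated libraries 1.31, 8.06 and 15.3 CPM. The OFAVBQ_DN224211_c1_g1_i2 log2 change was -0.67 (SE 0.19, edgeR adjusted p = 0.0699), and it passed with DESeq2 (adjusted p = 0.0307) and, in edgeR, without the heated D5 library (adjusted p = 0.0292). The other 38 of 40 alternatives did not pass, with log2 changes between -0.80 and -0.52 over all 40 and an adjusted p of up to 0.754.

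OFAVBQ_DN292069_c0_g1_i1 had the smallest p among members that were higher inshore at 31 days. It held 5.78, 10.2 and 42.6 CPM in inshore controls and 2.60, 4.95 and 13.3 CPM in heated inshore libraries at 5 days. At 31 days the controls held 1.22, 2.74 and 12 CPM and the heated libraries 0.495, 4.35 and 43.6 CPM, with A5 and BLY5 highest. The OFAVBQ_DN292069_c0_g1_i1 log2 change at 31 days was 1.41 (SE 0.61, edgeR adjusted p = 0.212). OFAVBQ_DN222667_c0_g1_i1 held 2.95, 3.89 and 12.6 CPM in inshore controls and 3.59, 8.59 and 11.9 CPM in heated libraries at 31 days. Its log2 change was 0.64 (SE 0.32, edgeR adjusted p = 0.286) inshore and -1.42 (SE 0.58, adjusted p = 0.430) offshore, and the difference of 2.06 (SE 0.67, adjusted p = 0.325) had the lowest adjusted p of the members. Neither change passed the test.

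**Figure D5:**
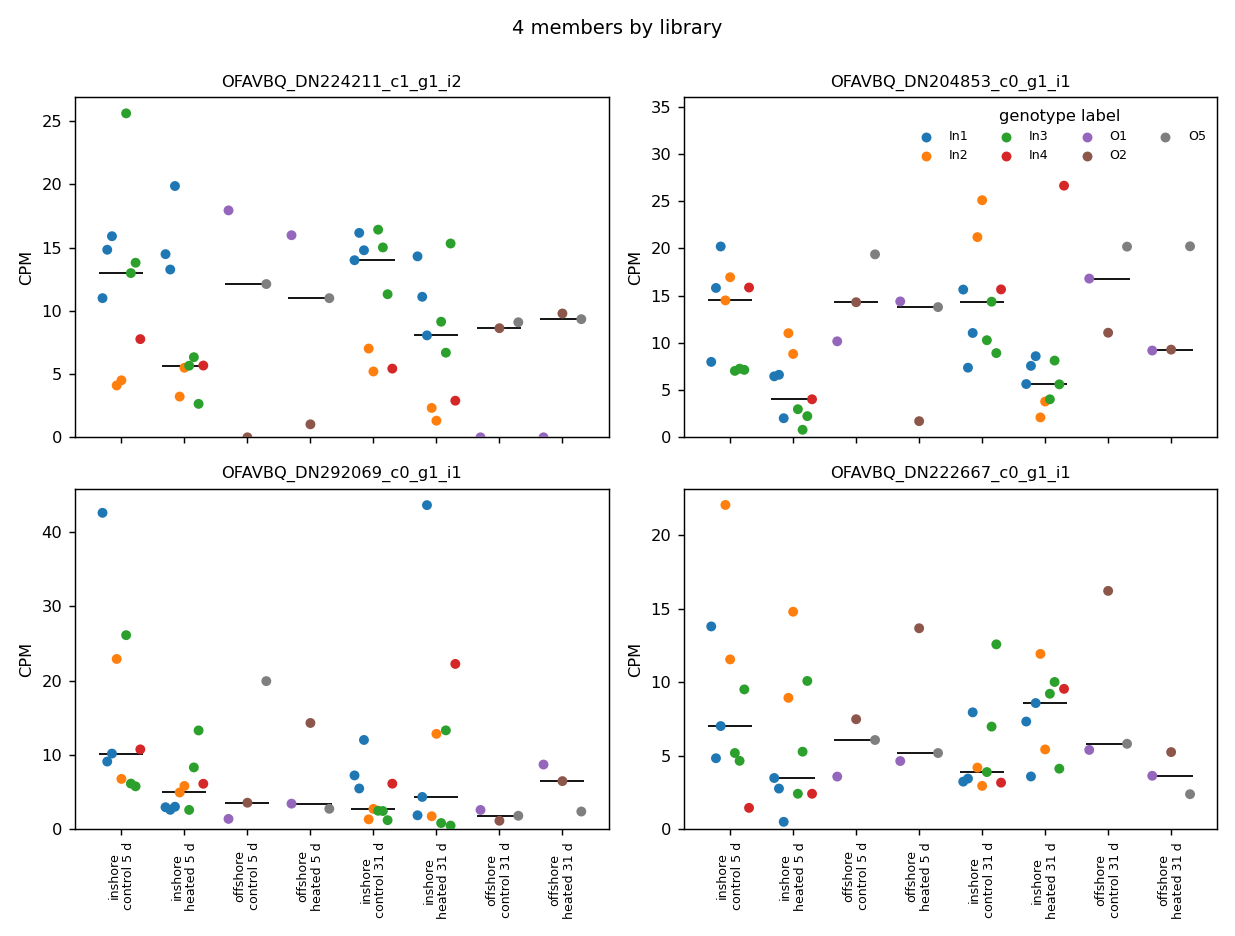
CPM of the 4 members named by identifier in each library, by group, coloured by genotype label, with the group median as a line. The upper pair had lower and the lower pair higher heated inshore medians at 31 days, and heated and control libraries overlap in every panel at that time.

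Several members without a set were present in some colonies and absent in others, whatever the temperature. One member held 95.8 to 141 CPM in the A tags of both controls and 97.7 to 172 CPM in the heated A tags. It held 34.8 to 118 CPM in the D tags over both arms and days, but at most 3.20 CPM in the BLY and B tags and at most 1.27 CPM in the 12 offshore libraries. Its inshore difference of 5 days came from the D tags, which went from 57.4 to 118 CPM in controls to 46.9 to 69.2 CPM under heat, while the A tags held 101 to 132 CPM and 130 to 172 CPM.

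Another member was at 0 in all 12 offshore libraries and at no more than 0.170 CPM in the D tags. It held 11.3 to 28.7 CPM in the A, BLY and B4 controls of 5 days and 4.83 to 10.8 CPM in their heated fragments, without overlap. At 31 days it was at 0 in B2 and B3, and heated A5 stood at 306 CPM. One more member was present inshore and nearly absent offshore: 1.20 to 16.4 CPM in the 9 inshore controls of 5 days, 0.299 to 3.69 CPM in the heated ones and at most 0.380 CPM in the 12 offshore libraries. Its D tags were highest, at 12.1 to 16.4 CPM in controls and 0.641 to 2.40 CPM under heat at 5 days, and at 14.2 to 17.8 CPM and 4.67 to 9.07 CPM at 31 days. A pair of members varied together, with a correlation of 0.96 over the 48 libraries, and was at 0 or near it in most of them. Unlike the members above, this pair did not follow colonies. At 31 days 1 of the pair held 7.38 to 12.4 CPM in the B controls and at most 0.176 CPM in the heated B tags. Its D tags went the other way, with at most 0.350 CPM in controls and up to 7.04 CPM under heat.

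Habitats were compared within an arm at 31 days on counts summed per genotype label, 4 inshore against 3 offshore. In controls 69 members could be tested and none was called by edgeR (background 0.0036%). At an unadjusted p under 0.05 there were 9 higher and 3 lower inshore, or 12 of 69 (background 6.87%), and DESeq2 called 1 member higher inshore (background 0.327%). The lowest edgeR adjusted p was 0.680. The median log2 difference of the tested members was 0.45, against -0.02 for all features. Above 0 stood 47 of 69 members, and below 0 stood 14321 of the 27795 features tested. The 47 include all 7 of set II, which vary together. In both arms the rule favoured an excess inshore, since it favoured high inshore controls and scarcity offshore at 5 days. The same labels recur at 31 days, and the mean level took in these libraries. Nothing is therefore read from the excess over all features in either arm.

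In heated fragments 66 members could be tested and edgeR called none (background 0.0), with 14 at an unadjusted p under 0.05, all higher inshore (background 4.61%). The lowest edgeR adjusted p was 0.263, and the median difference was 0.56, against 0.003 for all features. Above 0 stood 46 of 66 members, and below 0 stood 14963 of the 30124 features tested. DESeq2 called 8 members higher inshore (background 0.73%), of which 7 were set II whole and the other was the member of the A and D tags. All 7 of set II also had an unadjusted edgeR p under 0.05 in this comparison. The mean level of the rule took in these libraries, where heated inshore sums of set II reached 941 CPM. The rule thus favoured high values there, and nothing is read from the calls of set II. As given above, set II was itself near 0 in heated A2, B2 and D3. Yet each inshore label held a heated library at 297 CPM or more (A5, B3, D4 and BLY5). The sums per label therefore hide uneven libraries within In1, In2 and In3.

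The second deposited table counts features that its name marks as symbiont, here called algal RNA, and its ratio to coral RNA varied among libraries. At 5 days the log2 ratio was -2.60 to -1.88 in inshore controls and -3.75 to -2.34 in heated inshore libraries. Offshore it was -2.60 to -2.10 in controls, but -6.63 in heated C1, -6.51 in heated C2 and -3.43 in heated C5. Algal RNA was thus lowest in the heated offshore arm of the contrast that chose the members, and its part in the 5-day differences was not tested. Over the 24 libraries of 31 days, Spearman correlations of the members with the log2 ratio ran from -0.35 to 0.56 with a median of 0.17, against 0.03 for all features. None of the 88 reached 0.6 in either direction, where 3.74% of all features did. Within the 12 controls 8 members did (9.09%, against 8.92%), and within the 12 heated libraries 5 (5.75%, against 5.56%). That ratio takes the algal table whole. Against 1 of 2 parts of the algal features (15420 features), 2 members reached 0.6 (background 1.83%), at 0.94 and 0.72. Against the other part (18033 features) 1 member did, at 0.62 (background 0.444%). Which organism the member at 0.94 comes from was not tested. The points share library and depth, and the values are a description.

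Each member stood alone in its assembly gene, since the 87440 features had 87440 different gene parts in their identifiers. Counts split among isoforms of a gene can therefore not be seen here. An assembly component was shared by 12 members with 18 other features, whose inshore differences at 5 days had a median of -0.08, with 10 below 0 and 4 at -0.8 or lower.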

How the data were processed

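Whole-tissue RNA of 48 coral fragments went into strand-marking mRNA libraries, according to the labels' protocols. Deposited were the authors' expected counts per assembled transcript, in tables named for kallisto. The submitters' processing notes name Trimmomatic 0.36 and RSEM, and which tool made the counts is not given in the sources used here. Of the coral values 23.6% were not whole, and counts were rounded for tests. Such estimates can divide reads among transcripts of like sequence.

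CPM was computed by column total and levels as log2(CPM + 1). Heat effects within each habitat were fitted to the 24 libraries of a day with edgeR 4.0.16 (R 4.3.3, TMM, filterByExpr, quasi-likelihood F test, Benjamini-Hochberg at 0.05) with a genotype term. Habitats were compared on counts summed per genotype label. DESeq2 1.42.0, other scalings, filters, blocks and left-out libraries were alternatives. The model code was tested on simulated data. Descriptions and plots used Python 3.11.15.

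Members and lists were chosen with earlier results of these data known. Identifiers were printed for the 2 smallest edgeR p-values in each direction inshore at 31 days, and other members by lowest difference and highest mean level. Lists by gene product could not be applied, since the files pair no names with the identifiers. A column headed BL6 was taken as BLY6, the 1 sample left. None of 156 library pairs within groups was a copy (chi-square per degree of freedom 3.28 or more). Most colony tags occur in both arms. In the 11 tag pairs of 31 days, deviations from the group mean had correlations between 0.41 and 0.71. Libraries of other inshore labels had a median of -0.16, which subtracting group means lowers. Pairs of different tags with the same label were left out of this summary. Tag and label can therefore not be told apart by it.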

Additional observations from a re-analysis of the deposited data

Results flagged for a closer look

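Of 28 groups of library values looked at for a far library, 1 was marked, where chance alone marks about 1 in 20. The summed level of set I was 40.72 CPM in the B2 control at 31 days, and the next highest of the 9 inshore controls was 18.1 CPM. On the log2(CPM + 1) scale the gap was 0.63 of the range of the group, above Dixon's limit for 9 libraries. The same tag held 10.3 CPM under heat.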

How the results depend on the processing

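With the colony tag as the replicate block in place of the genotype label, 0 members were called inshore, offshore and in the difference at 31 days, as without it. The same held with B2 and B3 as separate labels. Both are In2, yet 1 member held 10.3 and 11.9 CPM in control and heated B2 at 31 days, and 0.211 and 0.329 CPM in B3. Members called inshore at 31 days (0) became 2 with DESeq2, 1 without label In4 and 0 to 1 over single libraries left out. In controls the count between habitats (0) became 1 with DESeq2 and 1 on single libraries, and in heated fragments (0) it became 8 with DESeq2 and 2 without a filter on low counts. None of these comparisons gave a call without the surge libraries, an alternative added after seeing the data for the habitats. The number of features meeting the rule (88) was 49 at a minimum of 5 CPM and 41 with group means for medians, of which 20 were members. Over single libraries left out it ran from 57 to 133, the lowest without the offshore control C1, with 26 members kept, and the highest without the BLY6 control, with 71. TMM scaling gave 88 features, of which 73 were members. Summing counts over isoforms was not run, since each gene part had 1 identifier. At 31 days, with 3 libraries in each offshore arm, the median SE of a member's heat response was 0.73 offshore against 0.41 inshore.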
